A study of Mus musculus with 3 samples.

Results

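Cycling non-granulosa cells of the mouse ovary after birth are described here, by library, with the lineage each of them belonged to. They were chosen by a rule on single-cell RNA counts: a summed level of the mitosis genes Mki67, Top2a, Birc5, Ube2c, Ccnb2 and Prc1 of at least 5 per 10000 counts (CP10K), with granulosa, endothelial, steroid-making and red blood cells excluded by their own genes. The rule took 177 of 1092 cells, 62 of 583 at postnatal day 14 (PND14) and 115 of 509 at postnatal day 7 (PND7). The whole series holds 1548 cells from 3 libraries of whole ovaries of wild-type C57BL/6 female mice, 1 library at each of embryonic day 16.5 (the age label; the title of that library gives another embryonic day), PND7 and PND14. Each age is 1 library, so differences between ages or cell groups are given without a test. The labels do not say how many mice went into a library. The bracketed ranges are exact 95% intervals of counting error alone.

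In the ovary of the first weeks, follicles start to grow, and the mesenchyme around them supplies fibroblasts of the stroma and the theca, the layer of androgen-making cells outside each growing follicle. Granulosa cells send Hedgehog ligands outwards, and the surrounding cells answer by raising Ptch1, Gli1 and Hhip, which makes these genes marks of theca precursors before steroid synthesis starts. Oocytes do not divide at these ages. They rest in the first meiotic prophase, grow, and store mRNAs for the later meiotic divisions.

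The exclusions were Inha, Amh, Hsd17b1 and Nr5a2 (granulosa, summed under 5 CP10K), Cldn5, Cdh5, Ecscr, Esam and Cd93 (endothelium, under 5 CP10K), Cyp17a1, Cyp11a1 and Hsd3b1 (steroid synthesis, under 10 CP10K) and haemoglobin (under 10% of a cell's counts). Among cells otherwise taken as cycling, the granulosa threshold alone or with others removed 22 cells at PND14 and 32 at PND7, the endothelial one 10 and 4, the steroid one 10 and 2, and haemoglobin 1 and 9. The cells that met the same exclusions but lay under the mitosis threshold, 348 at PND14 and 270 at PND7, are called noncycling here and serve for comparison. Counts are of mRNA molecules told apart by a sequence tag (unique molecular identifiers, UMIs). The deposited libraries total 9065595 UMIs at PND14 and 8743797 at PND7, and they share 0 cell barcodes. The selected cells were deeper than the noncycling ones, with a median of 19564 UMIs at PND14 and 16240 at PND7, against 9510.5 and 9146.5. No doublet caller was run. Cells at more than 3 times the median depth of their library's kept cells numbered 8 of 62 and 19 of 115.

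The mitosis sum that chose the cells ran between 5.21 and 61.5 CP10K at PND14 (median 16.3) and between 5.11 and 67.1 CP10K at PND7 (median 22.0). Few cells lay near the threshold: 4 selected cells at PND14 and 3 at PND7 had 5 to 6 CP10K, and 5 and 4 noncycling cells had 4 to 5 CP10K. The highest noncycling values were 4.95 CP10K at PND14 and 4.90 CP10K at PND7. At PND14 251 of 348 noncycling cells, and at PND7 165 of 270, had 0 UMIs of the 6 genes.

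These 6 genes act late in the cycle: Top2a untangles replicated DNA, Ccnb2 is a mitotic cyclin, Ube2c helps to destroy mitotic cyclins, Birc5 (survivin) guides chromosome attachment and blocks cell death, Prc1 bundles the central spindle, and Mki67 coats mitotic chromosomes. Genes of this kind are known to be regulated over the cell cycle through promoter motifs. Among these are the CCAAT box (CCAAT, or ATTGG on the other strand) and the cell cycle homology region (CHR, with TTTGAA, or TTCAAA on the other strand). The promoters of 4 genes are printed because these genes carry the selection and come apart between cell types below. Each runs 250 bases upstream to 50 bases downstream of the gene's start in RefSeq (GRCm38.p6), 5′ to 3′ on the gene's strand, and capitals mark both motifs on either strand. The window of Ccnb2 (ENSMUSG00000032218.7) is chr9:70421505-70421804 on the minus strand, that of Top2a (ENSMUSG00000020914.17) chr11:99024140-99024439 on the minus strand, that of Ube2c (ENSMUSG00000001403.13) chr2:164769679-164769978 on the plus strand and that of Birc5 (ENSMUSG00000017716.15) chr11:117848987-117849286 on the plus strand.
Ccnb2: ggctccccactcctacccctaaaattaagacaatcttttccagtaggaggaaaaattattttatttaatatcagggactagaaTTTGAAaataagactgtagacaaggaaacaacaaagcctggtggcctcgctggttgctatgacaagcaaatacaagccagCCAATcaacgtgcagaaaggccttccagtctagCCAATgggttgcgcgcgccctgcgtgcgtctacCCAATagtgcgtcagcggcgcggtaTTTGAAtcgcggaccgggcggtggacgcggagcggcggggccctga
Top2a: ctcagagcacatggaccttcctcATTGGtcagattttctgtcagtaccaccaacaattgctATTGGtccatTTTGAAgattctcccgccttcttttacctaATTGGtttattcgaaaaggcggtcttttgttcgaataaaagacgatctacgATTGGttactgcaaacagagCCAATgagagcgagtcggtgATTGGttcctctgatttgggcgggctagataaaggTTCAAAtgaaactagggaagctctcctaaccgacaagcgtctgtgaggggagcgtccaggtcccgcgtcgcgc
Ube2c: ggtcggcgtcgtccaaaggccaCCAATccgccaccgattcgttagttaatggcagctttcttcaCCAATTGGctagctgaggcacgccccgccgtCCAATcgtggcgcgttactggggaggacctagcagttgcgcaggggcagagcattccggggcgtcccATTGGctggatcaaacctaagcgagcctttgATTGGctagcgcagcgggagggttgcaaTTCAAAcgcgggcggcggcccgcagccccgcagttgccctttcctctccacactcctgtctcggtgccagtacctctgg
Birc5: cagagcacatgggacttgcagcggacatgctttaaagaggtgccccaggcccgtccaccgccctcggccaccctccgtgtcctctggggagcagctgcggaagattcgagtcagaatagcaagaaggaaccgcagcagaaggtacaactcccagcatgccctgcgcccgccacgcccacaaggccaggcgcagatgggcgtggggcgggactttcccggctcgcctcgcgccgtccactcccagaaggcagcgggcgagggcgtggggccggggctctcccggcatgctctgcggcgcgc

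Both motifs were in the window of 5 of the 6 genes and in neither strand of the Birc5 window. Of 32851 mouse promoter windows of the same length, 17.9% hold the CHR letters, 37.4% the CCAAT letters and 6.95% both. Motif copies in a window can overlap, as in the run CCAATTGG of Ube2c, and a match of letters is a description only.

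The cycling share was lower at PND14 than at PND7. Of the cells meeting the exclusions, 62 of 410 (15.1%; 11.8 to 19.0) were cycling at PND14 and 115 of 385 (29.9%; 25.3 to 34.7) at PND7. As a share of all kept cells these were 10.6% (8.25 to 13.4) and 22.6% (19.0 to 26.5). The intervals do not overlap in either form. Tissue dissociation and a 40 μm filter came before capture and can set such shares. The cells counted as cycling include germ cell-like cells, 3 at PND14 and 10 at PND7, whose label as cycling is taken up below.

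To ask for lineage apart from division, the postnatal cells were clustered without genes of the cell cycle and of the marker lists, and the clusters were then named from markers. Of 15 clusters 14 received a name. At PND14 most cycling cells were theca-like, 42 of 62 (67.7%; 54.7 to 79.1), and 12 were stroma-like (19.4%; 10.4 to 31.4). At PND7 the order was another: 56 of 115 were stroma-like (48.7%; 39.3 to 58.2), 30 lay in a cluster that met no name (cluster 5; 26.1%; 18.3 to 35.1) and 5 were theca-like (4.35%; 1.43 to 9.85). The other cells were germ cell-like (3 at PND14 and 10 at PND7), immune-like (2 and 6), smooth muscle or pericyte-like (1 and 3), erythroid-like (0 and 3), granulosa-like (1 and 1) and surface epithelium-like (1 and 1). Different clusters held the stroma-like cells of the 2 ages: clusters 8 and 13 held 5 and 6 of the 12 at PND14, and clusters 2 and 3 held 29 and 27 of the 56 at PND7.

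**Figure D1:**
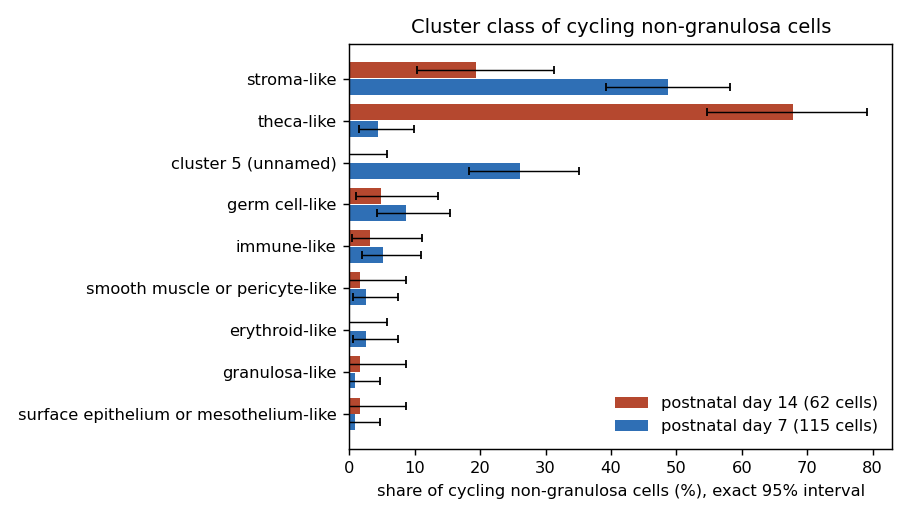
Share of the cycling non-granulosa cells in each cluster class, in percent, with PND14 (62 cells) above PND7 (115 cells) in each pair of bars and exact 95% intervals as error bars. Theca-like cells make 67.7% at PND14 and 4.35% at PND7, and stroma-like cells 19.4% and 48.7%. The PND7 shares depend on the clustering. With each library clustered alone, 37 of 115 cells at PND7 were theca-like and 10 stroma-like, and at resolution 0.5 35 were theca-like.

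These names depend on how cells were clustered. With cell cycle genes kept among the clustering genes, 83.9% of the cycling cells at PND14 and 80.9% at PND7 fell into unnamed clusters. With each library clustered alone, the PND14 cells stayed mostly theca-like (39 of 62), but at PND7 only 10 of 115 were stroma-like (8.70%), 37 theca-like (32.2%) and 48 unnamed (41.7%). At a resolution of 0.5, 0 cells were unnamed and 35 of 115 cells at PND7 (30.4%) were theca-like.

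The theca-like cluster (cluster 6) was led by Plac8, Traf3ip2, Tmem100, Enpep and Hhip. Its cycling cells carried Hedgehog response genes and hardly any Star or Insl3. Ptch1, Hhip and Gli1 are among the theca markers used for naming, and the rule limits steroid genes. Their levels therefore describe the class and are no separate evidence for its name. With cells thinned to equal depth, Ptch1 was found in 78.6% of theca-like and 41.7% of stroma-like cycling cells at PND14. In cycling cells over the granulosa threshold it was found in 36.4%. For Hhip these shares were 45.2%, 16.7% and 0%. In the 42 theca-like cycling cells at PND14, Ptch1, the Hedgehog receptor that is also a target of the pathway, was at 351 CPM (315 to 391; counts per 1000000 UMIs of the summed cells). Hhip, a Hedgehog-binding inhibitor and target, was at 90.0 CPM (71.9 to 111), and Gli1, the pathway's transcription factor, at 52.9 CPM (39.3 to 69.8). Star, which brings cholesterol into mitochondria, had 2 UMIs and Insl3, a theca hormone, had 1 UMI among 944717. Lhcgr, the luteinising hormone receptor, was at 16.9 CPM (9.68 to 27.5). The rule itself removes cells with much Cyp17a1, Cyp11a1 or Hsd3b1, and the second theca-like cluster, led by Cyp11a1 and Cyp17a1 with 42 cells at PND14, therefore holds 0 of the selected cells.

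The theca-like cycling cells were within 2-fold of the noncycling cells of the same class in these genes. Hhip was at 90.0 CPM against 116 CPM in the 91 noncycling theca-like cells of PND14, a ratio of 0.773 (0.585 to 1.02). Ptch1 was at 351 CPM against 314 CPM (ratio 1.12; 0.964 to 1.30), Gli1 at 52.9 CPM against 43.8 CPM (1.21; 0.809 to 1.80), and Enpep, a peptidase of theca cells, at 78.3 CPM against 93.8 CPM (0.835; 0.616 to 1.12). All 4 intervals include 1. Of the 7 Hedgehog response genes measured, 0 were 2-fold apart in theca-like cells, where 3.1% of all measured genes were 2-fold or more higher and 0.416% lower. In stroma-like cells 2 of 6 were higher and 0 lower at PND14 (5.13% and 8.07% of all measured genes, in 12 cells) and 0 of 7 were apart at PND7 (4.3% and 0.577%).

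Cluster 5, which was found at PND7 only, was led by S100a8, S100a9, Ngp and Camp, granule genes of neutrophils. These came from very few cells: of 2705 S100a8 UMIs in its 30 cycling cells, 2691 were in 3 cells, as were 1578 of 1589 S100a9 UMIs, 902 of 904 Ngp UMIs and all 705 Camp UMIs. The same 30 cells held mesenchymal genes widely. A Pdgfra UMI was found in 28 of 30, and Pdgfra, the platelet-derived growth factor receptor of fibroblasts, was at 207 CPM (175 to 244). Tcf21, a transcription factor of ovarian stroma, was at 218 CPM (185 to 256), Ptch1 at 254 CPM (218 to 294) and Hhip at 125 CPM (100 to 154). Hhip in cluster 5 lay above its level in the stroma-like cycling cells of PND7, 13.4 CPM (6.41 to 24.6). Hhip was also no lower there than in the theca-like cycling cells of PND14 given above. The 9 theca markers outside the rule summed to 699 CPM (639 to 764) in these cells and 1228 CPM (1053 to 1424) in the theca-like cycling cells of PND7. Those are only 5 cells with 142524 UMIs, and the 42 theca-like cycling cells of PND14 are not part of that comparison. With cells thinned to equal depth, cluster 5 was set beside those 42 cells and the stroma-like cycling cells of PND7. Hhip was found in 30%, 45.2% and 5.36% of the cycling cells, in that order. Ptch1 was found in 63.3%, 78.6% and 44.6%, and Enpep in 23.3%, 19.0% and 7.14%. The intervals of cluster 5 overlapped those of both other groups for each of these genes. No class had more markers past the fold used for naming than theca. Only 2 theca markers passed it, where 3 are needed, and 0 were among the cluster's 10 leading genes, so the cluster keeps its number. Those 10 were S100a8, S100a9, Ngp, Camp, BC100530, Stfa1, Stfa3, Lcn2, Ltf and Stfa2l1, which left no place for a theca or stroma marker. The missing name is thus an outcome of the naming rule and does not tell the lineage of these cells.

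Marker lists were also summed over all selected cells of a library. The 14 stroma markers were at 4138 CPM at PND14 and 4908 CPM at PND7, against 7265 and 9164 CPM in noncycling cells and 911 and 377 CPM in cycling granulosa-side cells (22 and 32 cells over both the mitosis and the granulosa threshold). Without the clusters of germ, immune and red blood cells, an alternative chosen after the clusters were seen, they were at 4944 and 7546 CPM. The 9 theca markers were at 671 CPM (630 to 715) at PND14 and 396 CPM (373 to 421) at PND7, against 514 and 382 CPM in noncycling cells. The 12 granulosa markers outside the rule were at 421 and 493 CPM, against 460 and 632 CPM in noncycling cells and 2890 and 3139 CPM in cycling granulosa-side cells. Endothelial markers outside the rule were at 118 and 63.5 CPM, against 102 and 97.6 CPM in noncycling cells.

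Counted by cell, with every cell thinned to 5000 UMIs, Pdgfra was found in 59.7% of the cycling cells at PND14 and 54.8% at PND7, and Tcf21 in 71.0% and 62.6%. Endothelium-like cells, taken as a background for free RNA, had Pdgfra in 10.7% and 0% and Tcf21 in 14.3% and 4.76%, at median depths of 21538 and 23381 UMIs. Without thinning, Pdgfra was found in 90.3% and 76.5% of the cycling cells and in 17.9% and 4.76% of the endothelium-like ones. Hhip was found, thinned, in 35.5% of cycling cells at PND14 (23.7 to 48.7) and 15.7% at PND7 (9.55 to 23.6), against 12.6% (9.34 to 16.6) and 8.52% (5.48 to 12.5) of noncycling cells. It was in 0 of 28 and 0 of 21 endothelium-like cells. Unthinned, Hhip was in 54.8% and 27.8% of cycling cells and 23.9% and 14.8% of noncycling cells. A cell with at least 2 stroma and 2 granulosa markers after thinning was common, 23 of 62 and 50 of 115, while stroma with endothelial markers (2 and 7), immune markers (2 and 9) or germ cell markers (1 and 6) was rare. Free RNA and doublets were not tested as the source of these combinations.

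Cycling cells made a larger share of the theca-like than of the stroma-like cells at PND14. Of the theca-like cells of cluster 6 that met the exclusions, 42 of 133 were cycling at PND14 (31.6%; 23.8 to 40.2) and 5 of 14 at PND7 (35.7%; 12.8 to 64.9). Of the stroma-like cells, 12 of 216 were cycling at PND14 (5.56%; 2.90 to 9.50) and 56 of 258 at PND7 (21.7%; 16.8 to 27.2). The 2 stroma-like intervals do not overlap, but the ages' cells came from different clusters. In cluster 5 the share was 30 of 56 (53.6%; 39.7 to 67.0). Smooth muscle or pericyte-like cells were cycling in 1 of 33 at PND14 and 3 of 13 at PND7, and immune-like cells in 2 of 9 and 6 of 12.

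**Figure D2:**
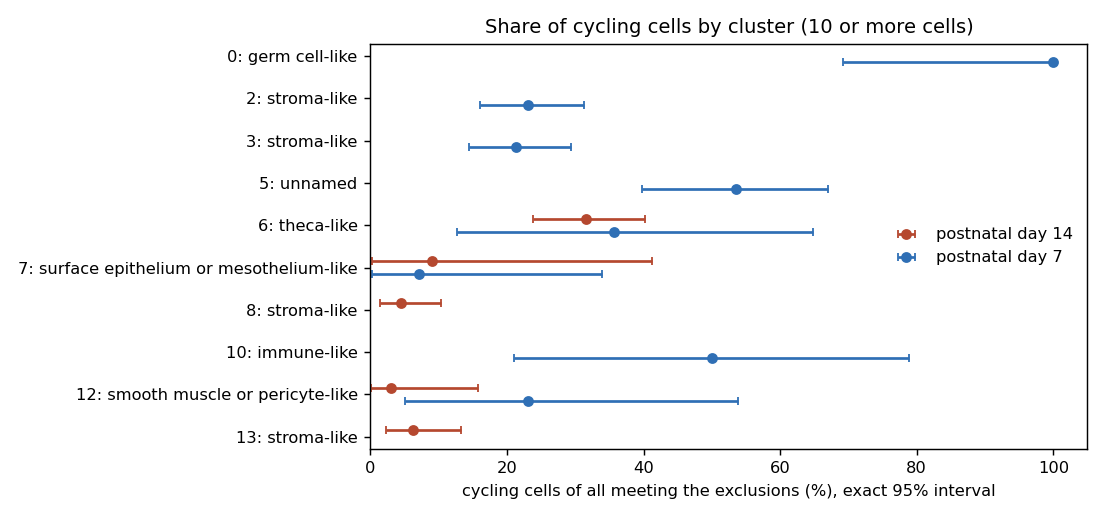
Cycling cells as a percentage of the cells that met the exclusions, for each cluster with 10 or more such cells, with PND14 points above PND7 points and exact 95% intervals. Theca-like cluster 6 stands at 31.6% at PND14, above the stroma-like clusters 8 and 13 of that library at 4.55% and 6.32%.

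The germ cell-like cells had lower levels of 4 of the 6 mitosis genes than the stroma-like and theca-like cycling cells, and their label as cycling rests on the other two, Birc5 and Ube2c. All 3 at PND14 and all 10 at PND7 that met the exclusions were selected, they were very large, with a median of 76636 and 84317 UMIs, and they held 16.0% and 29.9% of the selected cells' UMIs. They led with Dppa3, Ooep and Zp3, genes of the growing oocyte. Their selection rested on Birc5 and Ube2c. Birc5 was at 433 CPM (352 to 528) at PND14 and 638 CPM (585 to 694) at PND7, and Ube2c at 573 CPM (479 to 680) and 743 CPM (686 to 804). Mki67 was at 8.75 CPM (1.06 to 31.6) and 13.2 CPM (6.58 to 23.6), against 230 CPM (160 to 320) and 257 CPM (222 to 296) in the stroma-like cycling cells. Top2a was at 17.5 CPM (4.77 to 44.8) and 24.0 CPM (14.6 to 37.0), against 499 CPM (393 to 625) and 741 CPM (681 to 805). These genes are among the 6 that chose the cells, so their levels describe the selected cells and support nothing. Summed over 24 other genes of G2 and M phase, the median germ cell-like cell had 7.84 CP10K at PND14 and 12 CP10K at PND7, against 34.9 and 42.0 CP10K in stroma-like cycling cells. Oocyte genes stand among the genes named for all selected cells over all noncycling ones: Ooep, a maternal factor of the egg, was at 538 CPM against 6.63 CPM at PND14 and 857 CPM against 12.5 CPM at PND7, and Zp3, a protein of the egg coat, at 187 CPM against 0.237 CPM and 446 CPM against 2.49 CPM.

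**Figure D3:**
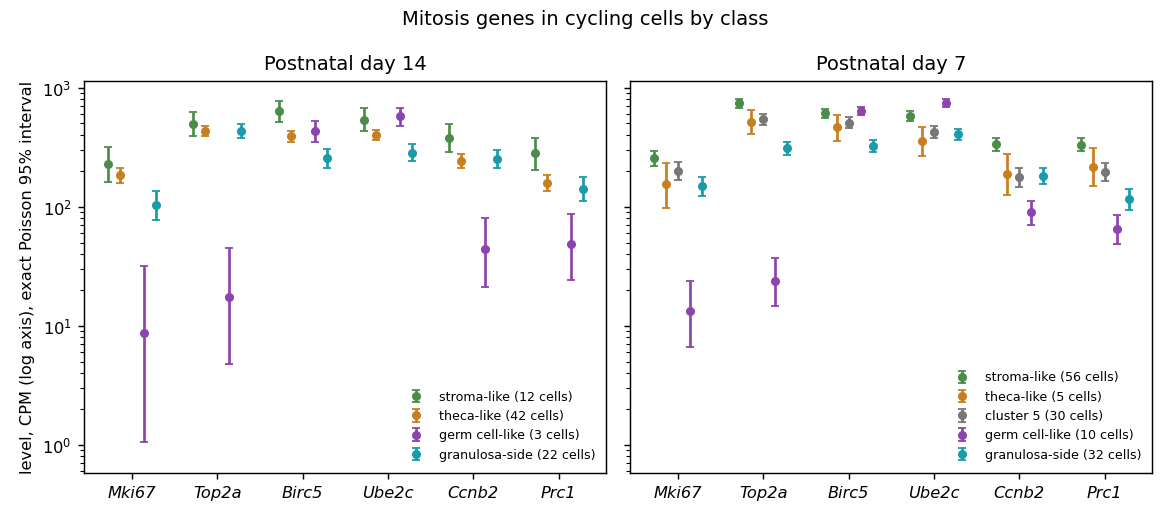
Levels of the 6 mitosis genes in cycling cells by class, in CPM on a log axis with exact Poisson 95% intervals, PND14 on the left and PND7 on the right. Germ cell-like cells have Birc5 and Ube2c at 433 and 573 CPM at PND14 and 638 and 743 CPM at PND7, and Mki67 at 8.75 and 13.2 CPM, below all other classes shown.

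In somatic classes the other cell cycle genes moved with the 6 that chose the cells. These comparisons share their contrast with the rule, so the counts describe the cells and support nothing. A gene was measured with at least 20 UMIs in both sums together and counted at 2-fold or more on the scale of log2(CPM + 10). Over all selected cells against all noncycling ones, the 24 G2 and M genes outside the rule were all higher at both ages (medians 2.97 at PND14 and 2.92 at PND7), where 3.74% and 5.78% of all measured genes were higher and 1.45% and 1.1% lower. They were all higher without the clusters of germ, immune and red blood cells too (3.15 and 3.20), with 2.75% and 3.3% of all measured genes higher and 1.58% and 0.714% lower. In stroma-like cycling cells against noncycling stroma-like cells, all 16 measured G2 and M genes were higher at PND14 (median log2 ratio 4.22) and all 24 at PND7 (3.59), where 5.13% and 4.3% of all measured genes were 2-fold or more higher and 8.07% and 0.577% lower. The 12 cells at PND14 hold 152271 UMIs, against 747578 UMIs in the 56 cells at PND7, and at that depth counting error alone takes unchanged genes past 2-fold, so the PND14 shares are no measure of change and cannot be set beside those of PND7. In theca-like cells at PND14 all 24 were higher (2.96), with 3.1% of all measured genes higher and 0.416% lower. Among S phase genes 14 of 16, 15 of 21 and 7 of 19 were higher in these 3 comparisons, with medians of 1.56, 1.28 and 0.73. Rrm2, a subunit of the enzyme that makes deoxyribonucleotides, was at 190 CPM against 6.68 CPM in stroma-like cells of PND14 and 255 CPM against 14.9 CPM in those of PND7. With cells thinned alike, the G2 and M sum was above the S sum in 44 of 62 selected cells at PND14 and 75 of 115 at PND7, and the S sum was the higher one in 15 and 33.

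**Figure D4:**
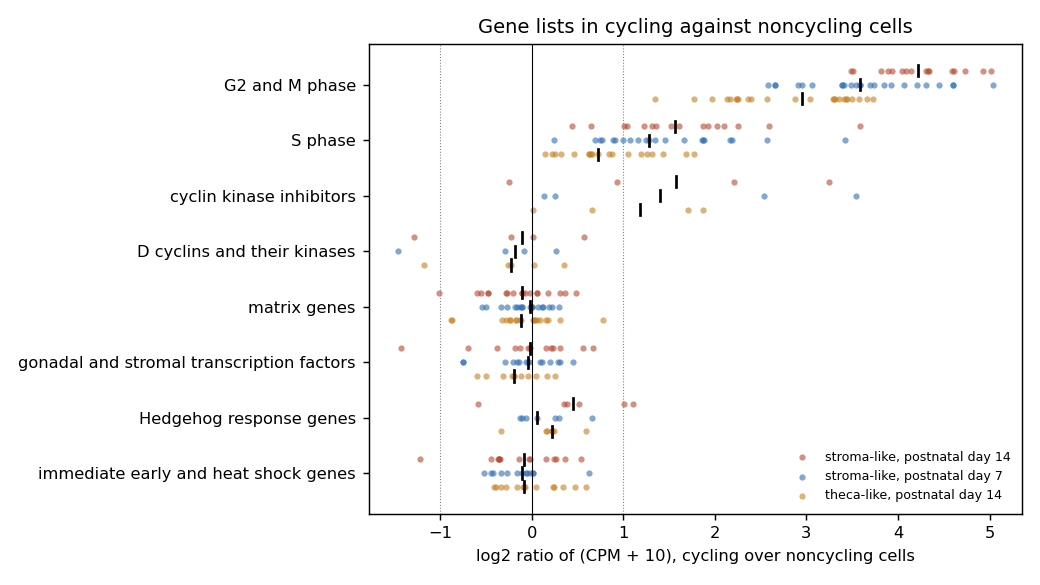
Log2 ratios of (CPM + 10) of cycling over noncycling cells of the same class and library, by gene list; each point is a measured gene, black bars are list medians and dotted lines mark 2-fold. G2 and M genes lie between 1.34 and 5.03, while the medians of matrix, transcription factor, Hedgehog and immediate early genes lie between −0.19 and 0.45.

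A few cell cycle regulators were 2-fold or more apart, in different directions. Of 4 kinase inhibitors measured, 2 were higher and 0 lower in stroma-like cells of either age and in theca-like cells at PND14. Among D cyclins and their kinases 0 were higher. In stroma-like cells of either age 1 of 4 was lower, and in theca-like cells 1 of 5. The all-gene shares were 5.13%, 4.3% and 3.1% higher and 8.07%, 0.577% and 0.416% lower for stroma-like cells at PND14 and PND7 and theca-like cells. Cdkn2c, which encodes p18, an inhibitor of the kinases CDK4 and CDK6, was higher in stroma-like cycling cells, at 328 CPM against 25.7 CPM at PND14 (12.8-fold; 8.47 to 19.3) and 325 CPM against 18.7 CPM at PND7 (17.4-fold; 12.3 to 25). In theca-like cells of PND14 it was at 121 CPM against 25.8 CPM (4.68-fold; 3.15 to 7.12). Cdkn2d, which encodes the related p19, was at 105 CPM against 14.9 CPM at PND14 and 143 CPM against 16.3 CPM at PND7 in stroma-like cells, and 63.5 CPM against 12.5 CPM in theca-like cells. Ccnd2, the D cyclin that drives entry into the cycle, went the other way. In stroma-like cells it was at 138 CPM against 351 CPM at PND14 (2.55-fold lower; 1.65 to 4.14) and 167 CPM against 476 CPM at PND7 (2.85-fold lower; 2.36 to 3.46), and in theca-like cells at 101 CPM against 239 CPM (2.38-fold lower; 1.88 to 3.03). Ccnd3 was at 105 CPM against 124 CPM and 158 CPM against 195 CPM in stroma-like cells, under 2-fold at both ages.

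Beyond those lists, the genes named for stroma-like cells, those with the largest ratio seen in both libraries, included proteins of chromatin and microtubules. Hmgb2, a chromatin protein, was at 2555 CPM against 94.5 CPM at PND14 and 2624 CPM against 212 CPM at PND7. Stmn1, a regulator of microtubules, was at 2417 CPM against 120 CPM and 2402 CPM against 244 CPM. Hist1h2ap, H2afx, Cks2, Pimreg, Cdca3, Pclaf, Lockd, Tubb4b and Tubb6 completed the higher side with Cdkn2c; Hist1h2ap is uncertain because histone genes have near-identical copies. On the lower side Ogn, a small proteoglycan of the matrix, was at 72.2 CPM against 539 CPM at PND14 (7.46-fold lower; 4.15 to 15) and 49.5 CPM against 227 CPM at PND7 (4.59-fold lower; 3.28 to 6.60). In theca-like cells it was at 32.8 CPM against 109 CPM (3.33-fold lower; 2.25 to 5.09). Aldoa, an enzyme of glycolysis, was at 46.0 CPM against 318 CPM and 88.3 CPM against 357 CPM in stroma-like cells and 132 CPM against 327 CPM in theca-like cells. Tmem100, a small membrane protein, was at 91.9 CPM against 367 CPM in stroma-like cells at PND14 (3.99-fold lower; 2.36 to 7.33) and 38.8 CPM against 85.5 CPM at PND7 (2.20-fold lower; 1.48 to 3.38). In theca-like cells at PND14 Spc25, a kinetochore protein, was at 179 CPM against 1.56 CPM, while Stc2, a secreted glycoprotein, was at 10.6 CPM against 43.0 CPM and Cyr61, an immediate early matrix protein, at 85.7 CPM against 210 CPM.

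Lists of matrix, transcription factor and stress genes had few members past 2-fold between cycling and noncycling cells of a class, at shares not set apart from those of all measured genes. In stroma-like cells these all-gene shares were 5.13% higher and 8.07% lower at PND14 and 4.3% and 0.577% at PND7, and in theca-like cells 3.1% and 0.416%. Of the matrix genes measured, 0 of 18 were higher and 1 was lower at PND14 (Lum, at 204 CPM against 422 CPM), and 0 of 19 were 2-fold apart at PND7 or in theca-like cells. Medians were −0.11, −0.02 and −0.12. Pdgfra was at 315 CPM against 242 CPM at PND14 (ratio 1.30; 0.947 to 1.76) and 249 CPM against 252 CPM at PND7 (0.989; 0.832 to 1.17) in stroma-like cells. Among 13 and 15 gonadal and stromal transcription factors measured, 0 were higher and 1 was lower at PND14 (Osr1, with 1 UMI against 67, a ratio whose interval of 0.00476 to 1.10 includes 1), and 0 were apart at PND7. Immediate early and heat shock genes, which rise when tissue is dissociated, had 0 of 14 higher and 1 lower (Atf3) in stroma-like cells at PND14 and 0 of 13 apart at PND7.

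The series title concerns a change of oestrogen receptors in granulosa cells. In the selected cells Esr1 (receptor α) was at 31.5 CPM (23.0 to 42.2) at PND14 and 46.3 CPM (38.6 to 55.0) at PND7, against 20.4 and 23.4 CPM in noncycling cells. The germ cell-like cells held 21 of 45 and 88 of 129 of these UMIs; in stroma-like cycling cells it was at 19.7 CPM (3 UMIs) and 20.1 CPM (15 UMIs). Esr2 (receptor β) was at 6.30 CPM (2.88 to 12) and 7.89 CPM (4.95 to 12), against 19.9 and 14.3 CPM in noncycling cells and 46.7 and 87.6 CPM in cycling granulosa-side cells. Foxl2, a granulosa and stroma transcription factor, was at 109 and 110 CPM, against 124 and 167 CPM in noncycling cells.

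Between the ages, the cycling cells at PND14 had more Cxcl14, Tmem100 and Osr2 and less Dlk1 and Meg3 than those at PND7. Of 11545 genes measured, 0.39% were 2-fold or more higher and 1.53% lower. Without the clusters of germ, immune and red blood cells these were 0.537% and 1.47%. In that set Cxcl14, a chemokine, was at 105 CPM against 14.2 CPM (7.43-fold; 4.76 to 12), Tmem100 at 402 CPM against 105 CPM (3.82-fold; 3.21 to 4.57) and the transcription factor gene Osr2 at 187 CPM against 66.2 CPM (2.83-fold; 2.24 to 3.59). Dlk1, a Notch-like membrane protein from an imprinted locus, was at 3.45 CPM against 423 CPM (123-fold lower; 47.7 to 451), and Meg3, a long noncoding RNA of the same locus, at 27.6 CPM against 511 CPM (18.5-fold lower; 13.0 to 27.2). Postn, periostin of young matrix, was at 7.77 CPM against 76.9 CPM (9.89-fold lower; 5.05 to 22.1). The classes differ between the ages, so these values mix class and age.

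Within stroma-like cycling cells Cxcl14, Osr2, Dlk1 and Meg3 were again 2-fold or more apart. Of 5868 measured genes 1.67% were higher at PND14 and 7.04% lower. The PND14 side is the same 12 cells with 152271 UMIs, so these shares are no measure of change. The stroma-like cells of the ages also lay mostly in different clusters, so cluster and age are mixed here too. Cxcl14 is among the leading genes of clusters 8 and 13, and Dlk1 among those of cluster 2. Cxcl14 was at 230 CPM at PND14 against 16.1 CPM at PND7 (14.3-fold; 7.26 to 30.3) and Osr2 at 131 CPM against 30.8 CPM (4.27-fold; 2.22 to 8.13). Dlk1 had 1 UMI at PND14 against 603 at PND7 (6.57 against 807 CPM; ratio 0.00814, interval 0.000206 to 0.0455). Meg3 was at 85.4 CPM against 760 CPM (8.90-fold lower; 5.16 to 16.8), and H19, an imprinted noncoding RNA of growing tissue, had 2 UMIs against 134 (ratio 0.0733; 0.00878 to 0.270). Tcf21 was at 768 CPM against 449 CPM (1.71-fold; 1.37 to 2.12). Noncycling stroma-like cells differed in the same direction, with Dlk1 at 44.2 CPM at PND14 against 762 CPM at PND7 and Meg3 at 149 CPM against 1199 CPM. None of the 24 G2 and M genes was 2-fold apart (median −0.28, against −0.08 over all measured genes). Both groups had to pass the same mitosis threshold, so this likeness describes the selected cells and supports nothing.

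**Figure D5:**
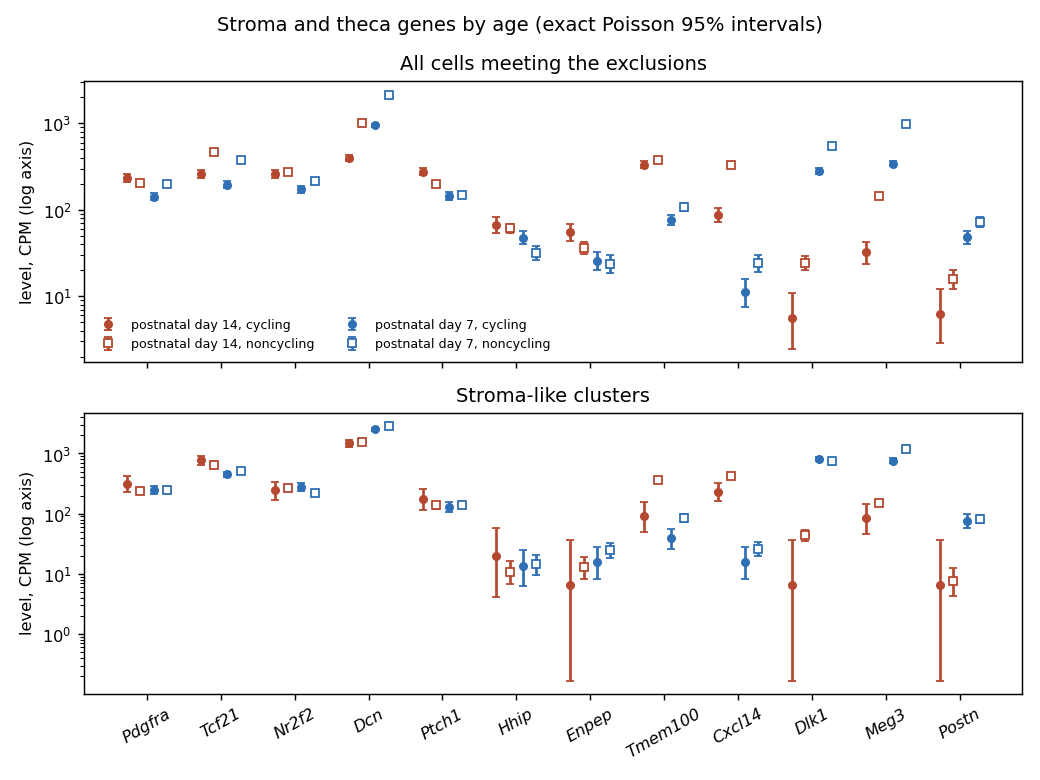
Levels of stroma and theca genes in cycling (filled circles) and noncycling (open squares) cells at PND14 (red, left of each group) and PND7 (blue), in CPM on a log axis with exact Poisson 95% intervals, lower ends drawn no lower than 0.1 CPM; all cells meeting the exclusions above, stroma-like clusters below. Dlk1 in stroma-like cycling cells stands at 6.57 CPM at PND14 and 807 CPM at PND7.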

How the data were processed

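Whole ovaries were digested, filtered and captured with the Chromium 3′ kit, and the 3 libraries were sequenced together, per the labels. Each deposited matrix gives unnormalised UMI counts for genes by barcodes, made by the authors with Cell Ranger 2.1.1 on GRCm38, per the submitters' processing notes; how barcodes were called cells is not given in the sources used here. They list 53465 genes, of which 108 symbols are repeated. Kept cells had 200 or more genes. The cells and the lists were chosen with earlier results of these data known.

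Sums of counts per cell group and library were scaled to 1000000 UMIs, with exact Poisson intervals; ratios have exact conditional binomial intervals and shares Clopper-Pearson ones, at 95%. A count of 0 allows 3 UMIs, or 2.10 CPM in the cycling cells at PND14 and 1.08 CPM at PND7. UMIs in 1 library are not replicates. For clustering (scanpy 1.11.5), counts were scaled to 10000, logged, reduced to 30 components of 2000 variable genes and split by Leiden at resolution 1.0 on 15 neighbours. Of all genes, 1275 were left out of the variable ones, 1084 of them for a correlation over 0.15 with the mitosis sum. A name needed 3 markers at 2-fold, at least 1 of them among the 10 leading genes, and no other class with more there. Log2 ratios use a pseudocount of 10 CPM, and ratios given as folds use none. The rule for named genes took 12 genes per direction with 50 or more UMIs in the higher group and intervals that do not overlap, leaving out mitochondrial, ribosomal, haemoglobin, predicted and Xist genes and, against noncycling cells, listed cycle genes; markers and list members are named beside it. The theca-like comparison and the sets without clusters of germ, immune and red blood cells were chosen after the clusters were seen. Only 3 comparisons were tested on simulated data: stroma-like cycling over noncycling cells at PND14 and at PND7, and all selected cells between the ages. Genes made to change were changed 4-fold and had 50 or more UMIs in the reference group. Of these 91.5%, 98.5% and 96% were recovered past 2-fold. Unchanged genes past 2-fold made 8.14%, 0.054% and 0%. Counts of genes in the stroma-like comparison at PND14 are therefore no measure of change. Smaller changes and the other comparisons were not simulated. Simulated counts were Poisson draws around the summed profile of the reference group, with no differences between cells or classes. The shares of unchanged genes past 2-fold therefore cover counting error alone and are no rate of false calls in the real data.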

Additional observations from a re-analysis of the deposited data

Results flagged for a closer look

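Some genes differed between the libraries in the direction of cycling over noncycling cells, on the scale of log2(CPM + 10), each ratio's interval lying on its own side of 1. The difference between the ages was not tested. Ccl5, a chemokine of lymphocytes, stood at −1.85 at PND14 and 3.07 at PND7. H19 stood at 1.97 at PND14 and −0.65 at PND7, and Ptn at 0.59 and −0.49. Pdgfra stood at 0.18 at PND14 and −0.48 at PND7; the germ cell-like cells, at 17.5 and 3.60 CPM of Pdgfra, make 16.0% and 29.9% of the cycling cells' UMIs, and their part in this was not tested. Hspa8 stood at 0.081 at PND14 and −0.098 at PND7. In stroma-like cells Igf1, a growth factor, stood at 1.05 at PND14 (289 CPM against 135 CPM) and −0.36 at PND7 (206 CPM against 267 CPM).

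The embryonic library was outside all comparisons. The same rule takes 116 of its 300 cells that meet the exclusions, or 38.7% (33.1 to 44.4), with 14 stroma markers at 1440 CPM and germ cell markers at 852 CPM. The granulosa threshold removed 0 cycling cells there, against 22 at PND14 and 32 at PND7, so these cells are not the same kind of set and their share is not lined up with those after birth.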

How the results depend on the processing

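Of 278 alternative values for 61 results, 199 stayed within counting error or within 1.5 times and 79 moved. Of 120 list medians 113 stayed. A reversal was looked for only in list medians of 2-fold or more and in a few named genes, and 0 were seen. Counts and shares could only stay or move, so that 0 does not cover them. The order of classes at PND7 did change with each library alone, to 10 stroma-like and 37 theca-like cells, against 56 and 5 as reported. With the exclusion thresholds lowered to 1 CP10K for granulosa and endothelial genes and 2 CP10K for steroid genes, 35 cells remained at PND14, stroma markers were at 5125 CPM at PND14 and 5593 CPM at PND7, theca markers at 777 CPM at PND14, and germ cell markers at 11.5 and 2096 CPM, against 1206 and 2560 CPM as reported. A mitosis threshold of 2 CP10K gave cycling shares of 19.8% and 35.1%. As a mean over cells, stroma markers were at 4887 and 7277 CPM and germ cell markers at 373 and 733 CPM, 76 genes were lower in cycling cells at PND7 (138 as reported) and 93 in stroma-like ones (56). Without cells of high depth, stroma markers were at 4901 and 7127 CPM, theca markers at 741 and 490 CPM and germ cell markers at 11.5 and 168 CPM. Without clusters of germ, immune and red blood cells, chosen after seeing the data, these were 4944 and 7546, 778 and 546, and 11.2 and 37.8 CPM, and 374 genes were higher (725) and 81 lower at PND7.

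With cell cycle genes kept, stroma-like shares were 0% and 0%, theca-like 4.84% and 0% and unnamed 83.9% and 80.9%. With each library alone, stroma-like shares were 9.68% and 8.70% and unnamed 12.9% and 41.7%, and theca-like 32.2% at PND7. At resolution 0.5 the PND7 theca-like share was 30.4% and the unnamed one 0%; at resolution 2 the PND14 unnamed share was 14.5%.

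Gene counts follow the pseudocount. At 1 CPM, 918 and 1508 genes were higher and 698 and 618 lower in cycling cells at PND14 and PND7 (445 and 725, 173 and 138 as reported), 810 and 669 higher and 1175 and 434 lower in stroma-like ones (436 and 417, 686 and 56), and 200 higher and 745 lower at PND14 than at PND7 (45 and 177). At 50 CPM these were 127 and 198, 37 and 36, 141 and 166, 20 and 5, and 9 and 33. G2 and M medians were 5.18 in stroma-like cells at PND7 and 4.60 in theca-like cells at 1 CPM, and 2.05 and 1.53 at 50 CPM, where the median of kinase inhibitors in theca-like cells was 0.58. With no filter on low counts, 821 genes were higher in stroma-like cells at PND14, and the inhibitor medians were 0.25 in stroma-like cells at PND7 and 0.59 in theca-like cells. Median ratio scaling gave 287 there, noncycling cells with 0 UMIs of the rule gave 214 lower genes at PND7, and stroma-like clusters alone gave 98 higher and 413 lower genes between the ages. Beyond what each setting itself removes, the cause was not tested.

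No paired analysis was possible because each age is 1 library. A count of 0 allows up to 3 UMIs. In the 12 stroma-like cells at PND14 a gene with 0 UMIs can thus be at up to 19.7 CPM, against 4.01 CPM at PND7.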
